A study of Homo sapiens with 108 samples.

Results

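The mitotic kinesins described here are KIF11, KIF15, KIFC1, KIF2C, KIF18A, KIF4A, KIF14, KIF23, KIF20A and KIF20B, motor proteins that build the spindle, move chromosomes on it and help to split the cell afterwards. They were found as the array probes whose only annotated gene symbol was one of these 10 names, which gave 11 of the 54359 probes. Each gene had 1 probe among the 32060 kept for testing. The second KIF4A probe was left out, since 19.4% of its values were missing and its mean deposited level (-1.30 on the log2 scale) lay under the limit of -0.41 set for all probes. Expression was measured on single-colour arrays in 6 human melanoma cell lines: MeWo, HMV-I, HMV-II, C32TG, Colo679 and 92-1. Every line gave 6 groups of 3 arrays: unirradiated cells (0 Gy), cells 1 h after 2 Gy and cells 3 h after 2 Gy, once for carbon ions and once for X-rays. Each beam had its own unirradiated controls, which its 1 h and 3 h groups shared, and the labels give no collection time for them. Carbon ions are heavy charged particles that lose their energy along dense tracks, whereas X-rays are photons that spread it more evenly. Genotypes, clones and passage numbers of the lines are not in the labels.

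Kinesins are enzymes that walk along, or take apart, microtubules while they hydrolyse ATP. Mitotic kinesins are made mainly in G2 phase and mitosis, and their transcripts are among the known markers of dividing cells. In the DREAM and MMB-FOXM1 system, many genes of this phase are repressed outside it and after DNA damage through a promoter element called the CHR, often next to CCAAT boxes bound by NF-Y. Ionizing radiation is known for checkpoint arrest in G2 and for lowering the entry of cells into mitosis. In bulk RNA, fewer cells in mitosis and less RNA per cell cannot be told apart.

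The lines were checked against 7 measured melanocyte markers in the unirradiated arrays. In 5 lines, 6 or 7 of these lay above the 50th percentile of their array. HMV-I had only 2 of 7 above it, and 1 above the 90th percentile, so most of these melanocyte transcripts were low in that line. Above the 90th percentile C32TG had 3 of 7, and 92-1, Colo679, HMV-II and MeWo had 5 or 6. Among fibroblast, keratinocyte, leukocyte and endothelial markers only LUM, a fibroblast marker, lay above it, in HMV-II and MeWo. PECAM1, an endothelial marker, lay at the 83rd to 85th percentile in all 6 lines. The 3 arrays of a group correlated with r between 0.987 and 0.998 across probes, and no arrays held identical values. Missing values numbered 1000 to 8034 an array. Whether a group's arrays stand for separate cultures is not in the labels, so p-values within a line cover the spread between arrays, whose number limits the precision. At 3 h no call was made in either beam among the measured markers of melanocytes (7), fibroblasts (6), keratinocytes (1), leukocytes (1) and endothelium (1). Across lines each line counts once, and values are means ± SD over n = 6 lines with adjusted p from limma over all kept probes.

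RefSeq promoter windows (GRCh38.p14) were given for all 10 genes, from 250 bases before the annotated start of transcription to 50 bases after it. They were searched on both strands for TTTGAA, the core letters of the CHR, and for CCAAT, which do not overlap each other in any of the 10 windows. TTTGAA was present in 8 of the 10 windows, against 15.2% of all 35116 windows of the same length, and CCAAT in 8 of 10, against 34.6%. Both were present in 7 of 10, against 5.90%. KIF20A and KIF2C held no TTTGAA, and KIF15 and KIF2C held no CCAAT. A match describes letters only, not binding. The 120 bases before the start are printed for the 5 genes in which TTTGAA lies before the start, to show how it is spaced from CCAAT, and for KIF20A and KIF2C, which lack it. They lie at KIF11 chr10:92593010-92593129, KIF15 chr3:44761674-44761793, KIF18A chr11:28108157-28108276 on the minus strand, KIF4A chrX:70289984-70290103, KIF23 chr15:69414229-69414348, KIF20A chr5:138178992-138179111 and KIF2C chr1:44739717-44739836, the others on the plus strand. Letters run 5′ to 3′ on the gene's strand, and capitals mark TTTGAA or CCAAT on either strand (TTCAAA and ATTGG when read on the opposite one):
KIF11: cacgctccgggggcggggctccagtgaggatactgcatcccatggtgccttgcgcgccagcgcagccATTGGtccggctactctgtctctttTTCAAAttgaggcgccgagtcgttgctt
KIF15: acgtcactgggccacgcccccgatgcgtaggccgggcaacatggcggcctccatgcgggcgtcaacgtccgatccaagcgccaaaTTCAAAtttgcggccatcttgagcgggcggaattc
KIF18A: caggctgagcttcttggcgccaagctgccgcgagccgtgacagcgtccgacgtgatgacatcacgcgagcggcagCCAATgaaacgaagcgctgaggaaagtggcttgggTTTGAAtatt
KIF4A: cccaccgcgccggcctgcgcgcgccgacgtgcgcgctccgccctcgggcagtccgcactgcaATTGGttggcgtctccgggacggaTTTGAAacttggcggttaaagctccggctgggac
KIF23: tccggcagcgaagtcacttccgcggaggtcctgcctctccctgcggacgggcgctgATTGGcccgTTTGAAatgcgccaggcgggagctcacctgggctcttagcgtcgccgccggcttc
KIF20A: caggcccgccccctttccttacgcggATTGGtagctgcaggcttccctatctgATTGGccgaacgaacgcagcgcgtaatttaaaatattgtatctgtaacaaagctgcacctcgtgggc
KIF2C: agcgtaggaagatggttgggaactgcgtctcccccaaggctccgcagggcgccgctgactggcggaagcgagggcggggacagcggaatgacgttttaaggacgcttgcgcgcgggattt
In KIF11, KIF23, KIF4A and KIF18A a CCAAT box precedes the TTTGAA match, which begins 28, 55, 34 and 10 bases before the start, respectively. KIF15 carries TTTGAA 35 bases before the start without a CCAAT box in the window. KIF20A has 2 CCAAT boxes, beginning 94 and 67 bases before the start. The TTTGAA matches of KIF14, KIFC1 and KIF20B fell after the start, KIF20B with 2 of them, while their CCAAT matches lay before it. Stretches of these genes are not printed. The start used for the KIFC1 window lies inside the annotated gene, so its placement is less sure, and that window is among the 8 with TTTGAA and the 8 with CCAAT. Among the 28 windows of transport and other kinesins, 1 held TTTGAA (3.57%), compared with 12 of 24 (50%) for genes of G2 phase and mitosis, 13 of 24 (54.2%) for spindle partners and 0 of 21 for G1/S genes. CCAAT was found in 28.6% of windows for transport kinesins, in 75% for G2 and mitosis, in 66.7% for spindle partners and in 71.4% for G1/S genes, beside 80% of the members.

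At 3 h after carbon ions, 7 of the 10 kinesins fell and none rose, where 6.98% of all kept probes fell and 6.43% rose. Of the 13662 named genes, each counted by 1 probe, 622 fell and 994 rose. The median change of the 10 kinesins was -0.32 on the log2 scale, while that of all kept probes was 0.00. The largest mean fall was that of KIF20A, which works in the last step of division, to 0.608 of the control level. KIF20B, KIF4A, KIF18A and KIF14 followed, and KIF11 and KIF2C fell least among those that passed. KIF23, KIF15 and KIFC1 did not pass. In all, 6 of the 10 were lower in all 6 lines, as were 9.27% of all kept probes. Without 92-1 the count was 4 of 10, with KIF11, KIF2C and KIF4A no longer passing, and without any other single line it lay between 5 and 8. Over all kept probes the share of calls that rose depended on scaling, being 48.0% after quantile normalization, 76.5% under median centring and 38.0% in the deposited values, while the kinesins that fell numbered 7, 6 and 7. KIF2C did not pass under median centring or in the deposited values, and KIF23 passed in the latter.

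The motors that set up and hold the bipolar spindle came first. KIF11, also called Eg5, pushes the spindle poles apart by sliding antiparallel microtubules. After carbon ions it changed at 3 h by -0.55 in 92-1 and in HMV-I, -0.23 in Colo679, -0.18 in HMV-II, -0.13 in MeWo and -0.01 in C32TG. 92-1 and HMV-I were lowest, and C32TG showed almost no difference. The mean was -0.28 ± 0.23 (SD, n = 6, adjusted p = 0.0351), and this call was lost without 92-1 (adjusted p = 0.106), Colo679 (0.0753), HMV-I (0.101), HMV-II (0.0667), replicate 1 (0.112) or replicate 3 (0.0801). On the HMV-I arrays, KIF11 read 4.37, 4.27 and 4.52 in the controls and 3.71, 4.06 and 3.73 at 3 h, with no overlap. KIF15, a second bipolar motor that helps to keep the poles apart, changed between -0.28 in MeWo and 0.09 in Colo679, with a mean of -0.15 ± 0.13 (adjusted p = 0.10). KIFC1, a minus-end motor that focuses poles and clusters extra centrosomes, stood apart from the rest: its line values ran from -0.13 in HMV-I to 0.24 in MeWo, and the mean was 0.03 ± 0.15 (adjusted p = 0.790), and -0.01 in the deposited values. Its probe lay at the 53rd percentile of all probes.

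The motors that act on chromosomes and kinetochores came next. KIF18A walks to microtubule plus ends and damps chromosome movement so that chromosomes align. It changed by -0.74 in HMV-II, -0.68 in 92-1, -0.53 in HMV-I, -0.32 in Colo679, -0.29 in C32TG and -0.26 in MeWo, a mean of -0.47 ± 0.21 (adjusted p = 0.00390). In each line the 3 h arrays lay below all control arrays. In HMV-II the controls read 3.13, 3.17 and 3.35 and the 3 h arrays 2.48, 2.49 and 2.47. KIF4A, a chromokinesin that binds chromosome arms and later organizes the central spindle, changed by -0.79 in MeWo, -0.78 in HMV-I, -0.63 in 92-1, -0.46 in HMV-II, -0.21 in Colo679 and 0.04 in C32TG. The lines thus spread widely, with C32TG and Colo679 nearest to 0, and the mean was -0.47 ± 0.33 (adjusted p = 0.0149). One of the 3 carbon 3 h arrays of 92-1 had no KIF4A value, and the mean of that group rests on the other two. KIF2C, also called MCAK, does not walk but takes microtubules apart at kinetochores and so corrects wrong attachments. Its changes were -0.43 in 92-1, -0.40 in C32TG, -0.39 in HMV-I, -0.15 in Colo679, -0.04 in HMV-II and 0.01 in MeWo. The C32TG value rests largely on the third array: the 3 h arrays read 5.51, 5.45 and 4.86 and the controls 5.71, 5.59 and 5.73, and the change was -0.17 without replicate 3. 92-1, C32TG and HMV-I were lower and the others nearer to their controls, with a mean of -0.23 ± 0.20 (adjusted p = 0.0455). This was the least stable of the 7 calls: the mean was -0.08 under median centring (adjusted p = 0.406) and -0.16 in the deposited values (adjusted p = 0.112), and it passed in 3 of 13 alternatives, beside 7 for KIF11, 12 for KIF4A and 13 for KIF20A, KIF20B, KIF18A and KIF14.

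Motors of the central spindle and cytokinesis formed the last group. KIF20A, also called MKLP2, brings the chromosomal passenger complex to the spindle midzone. It changed by -1.04 in HMV-II, -1.02 in 92-1, -0.93 in HMV-I, -0.69 in Colo679, -0.50 in MeWo and -0.12 in C32TG, which gives -0.72 ± 0.36 (adjusted p = 0.00368). On the HMV-II arrays it read 3.32, 3.55 and 3.46 in the controls, 3.31, 3.38 and 3.15 at 1 h, and 2.28, 2.49 and 2.42 at 3 h. The C32TG arrays overlapped, with controls at 3.89, 4.22 and 4.17 and 3 h arrays at 3.92, 3.97 and 4.01. KIF20B, also called MPP1, is needed for the completion of cytokinesis. It changed by -0.79 in HMV-II, -0.72 in 92-1, -0.65 in MeWo, -0.59 in HMV-I, -0.25 in Colo679 and -0.03 in C32TG, a mean of -0.51 ± 0.30 (adjusted p = 0.00809). Its MeWo value comes from low levels, with a carbon-ion control mean of 0.05, the lowest of the lines. KIF14, a midzone motor that recruits citron kinase, had the narrowest spread of those that fell, from -0.53 in 92-1 to -0.20 in HMV-II, with a mean of -0.36 ± 0.13 (adjusted p = 0.00390). In Colo679 it read 3.95, 4.0 and 4.01 in the controls and 3.57, 3.56 and 3.51 at 3 h. KIF23, also called MKLP1, forms the centralspindlin complex with RACGAP1 and was lower in 6 of 6 lines, from -0.41 in 92-1 to -0.01 in MeWo. Its mean of -0.19 ± 0.16 missed the threshold (adjusted p = 0.0578), and it passed in 2 of 13 alternatives. RACGAP1 itself changed by -0.32 ± 0.09 (adjusted p = 0.00401).

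**Figure D1:**
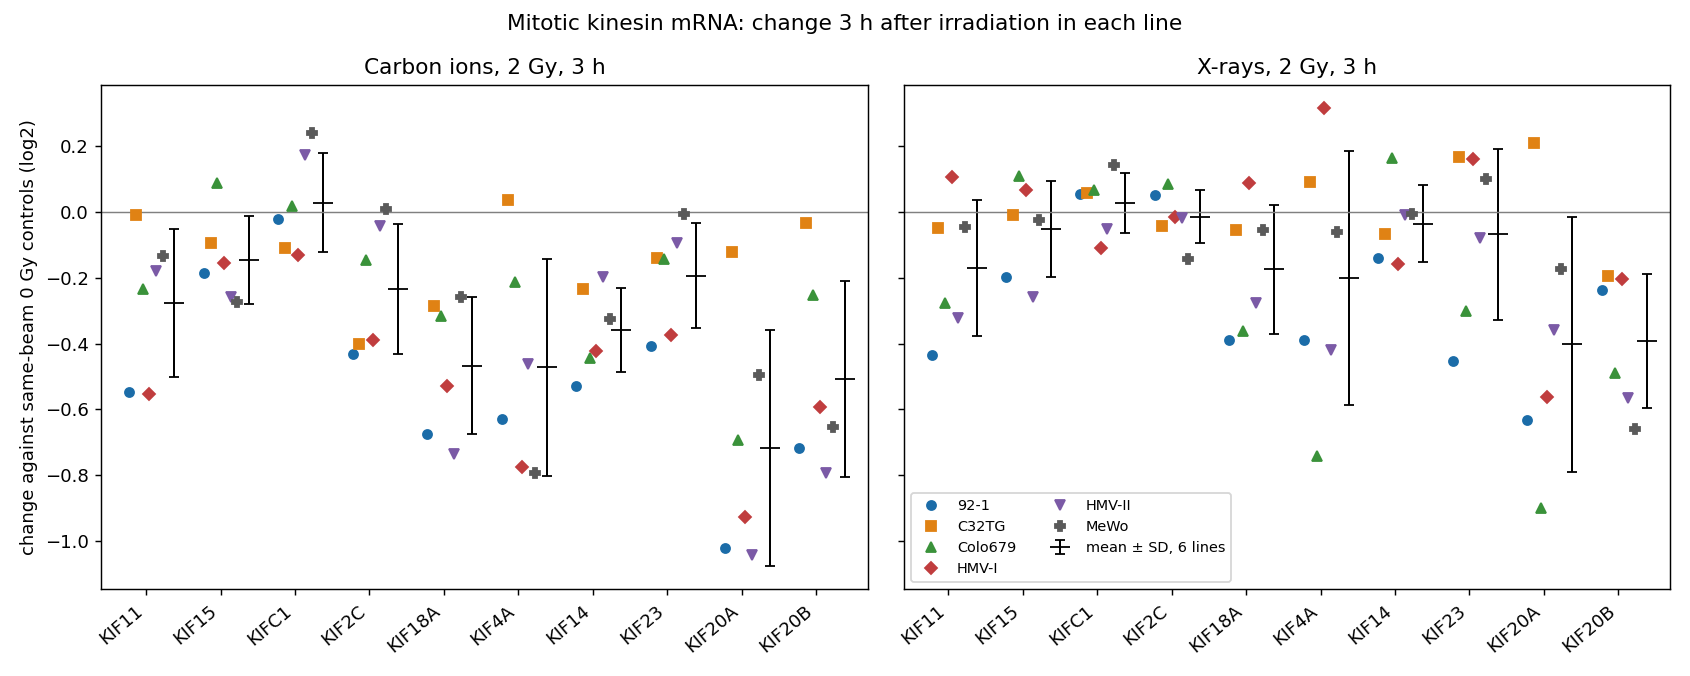
Change of the 10 kinesins 3 h after carbon ions (left) and X-rays (right) against the unirradiated controls of the same beam, on the log2 scale. Each symbol is 1 of 6 lines (mean of 3 arrays minus mean of 3 arrays) and black bars are mean ± SD; KIF20A after carbon ions runs from -1.04 in HMV-II to -0.12 in C32TG, and KIFC1 lies around 0 after both beams.

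After X-rays, 2 of the 10 kinesins had fallen at 3 h, KIF20A and KIF20B, where 4.19% of all kept probes had. The median change of the 10 was -0.12, beside 0.00 for all kept probes. The share of all calls that rose was 41.4%, or 70.4% under median centring and 24.5% in the deposited values, and 2 kinesins fell under each. KIF20B changed by -0.66 in MeWo, -0.57 in HMV-II, -0.49 in Colo679, -0.24 in 92-1 and -0.20 in both HMV-I and C32TG, a mean of -0.39 ± 0.20 (adjusted p = 0.00722), and passed in 13 of 13 alternative settings. KIF20A changed by -0.90 in Colo679, -0.63 in 92-1, -0.56 in HMV-I, -0.36 in HMV-II, -0.17 in MeWo and 0.21 in C32TG. The C32TG mean was thus higher and the others lower, and in C32TG, 92-1 and HMV-II the arrays overlapped those of the controls. Across lines the mean was -0.40 ± 0.39 (adjusted p = 0.0449). That call passed in 6 of 13 alternatives and was lost without any line other than C32TG (adjusted p = 0.0653 to 0.131) and without replicate 2 (adjusted p = 0.207).

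The remaining 8 did not pass after X-rays. KIF4A was the most divided between lines, from -0.74 in Colo679 to 0.32 in HMV-I, with a mean of -0.20 ± 0.39 (adjusted p = 0.298). KIF18A averaged -0.17 ± 0.20 (adjusted p = 0.148) and KIF11 -0.17 ± 0.21 (adjusted p = 0.169). KIF14, the most even one after carbon ions, averaged -0.04 ± 0.12 (adjusted p = 0.750), and KIF2C -0.01 ± 0.08 (adjusted p = 0.898), the latter 0.06 under median centring. KIF23, KIF15 and KIFC1 had means of -0.07, -0.05 and 0.03.

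The beams were then compared directly, as the change after carbon ions minus the change after X-rays in each line. At 3 h no member passed in limma, and neither did any of the 32060 probes (0%). At an unadjusted p under 0.05, 4 of 10 members differed, all with the more negative change after carbon ions, where 4.46% of all probes differed in either direction. For KIF14 the difference was -0.32 ± 0.16 (95% interval -0.48 to -0.17) and negative in 6 of 6 lines, from -0.61 in Colo679 to -0.17 in C32TG. KIF20A differed by -0.32 ± 0.29 (-0.52 to -0.11), with Colo679 opposite at 0.21. KIF18A differed by -0.29 ± 0.23 (-0.47 to -0.11) and KIF2C by -0.22 ± 0.24 (-0.40 to -0.04), each negative in 5 of 6 lines. KIF20B, which fell after both beams, had a difference of -0.12 ± 0.30 (-0.33 to 0.09). The adjusted p of each was 1.00, so a passing count after one beam and not after the other is no shown difference between them. These differences also contain the differences between the control sets, given further on.

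At 1 h none of the 10 had changed after either beam in limma, although 10.7% of all kept probes had in the carbon-ion arrays and 1.15% in the X-ray arrays. Of those calls 43.6% and 31.9% rose, or 66.9% and 47.5% under median centring. Among the 13662 named genes 379 fell and 611 rose in the carbon-ion arrays, and 56 fell and 37 rose in the X-ray arrays. Means of the 10 ran from -0.12 (KIF4A) to 0.14 (KIFC1) for carbon ions and from -0.08 (KIF20B) to 0.07 (KIF14) for X-rays. At an unadjusted p under 0.05 there were 2 members after carbon ions (KIF20A at -0.10 ± 0.08 and KIFC1 at 0.14 ± 0.17), against 26.4% of all probes, and 0 after X-rays, against 13.8%. The difference between beams at 1 h also gave 0 members (0% of probes), and 1, KIF14, at an unadjusted p under 0.05, against 7.55%. Line means of KIF20A at 1 h lay between -0.19 in MeWo and 0.03 in C32TG after carbon ions and between -0.29 in Colo679 and 0.14 in 92-1 after X-rays. Within lines, 1 of 60 combinations was lower at 1 h after carbon ions (KIF14 in C32TG, -0.24, against 3.21% of probe and line combinations) and 1 higher (KIFC1 in MeWo, 0.43, against 1.91%). For X-rays 0 were lower (against 1.19%) and 1 was higher (KIF15 in HMV-I, 0.40, against 0.607%). The group means of all 10 kinesins in HMV-I lay above their X-ray controls at 1 h, with a median of 0.25. Of all kept probes there, 49.3% had a lower mean. For 6 of the 10, all 1 h arrays lay above the controls, against 10% of all probe and line combinations with all values. The later time was also set against the earlier one, with irradiated arrays only and both beams averaged. By that measure 6 of 10 were lower at 3 h than at 1 h, against 2% of all kept probes. Of all calls in that comparison 55.6% were higher, or 74.8% under median centring and 28.8% in the deposited values. KIF20A changed by -0.48 ± 0.34 (adjusted p = 0.0228), KIF20B by -0.36 ± 0.14 (0.00414), KIF18A by -0.30 ± 0.21 (0.0291), KIF4A by -0.26 ± 0.19 (0.0349), KIF14 by -0.22 ± 0.16 (0.0413) and KIF15 by -0.15 ± 0.10 (0.0461). Without 92-1, Colo679, HMV-I or HMV-II in turn, KIF20B alone still passed.

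**Figure D2:**
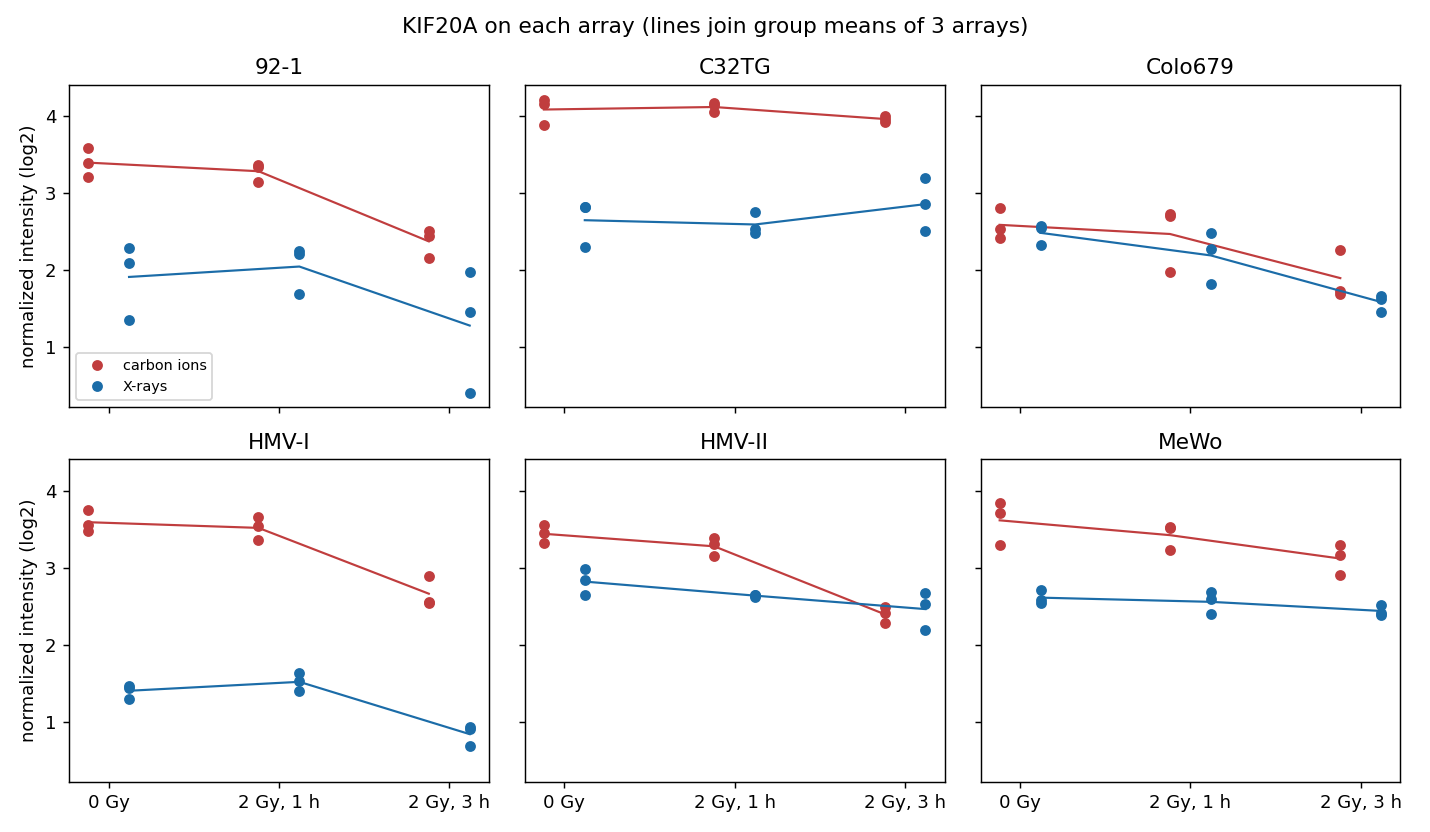
KIF20A on every array, as quantile-normalized log2 intensity, in 6 panels for the 6 lines at 0 Gy, 1 h and 3 h after 2 Gy, with carbon-ion arrays in red and X-ray arrays in blue; points are arrays and lines join group means. Carbon-ion control means are higher than X-ray control means, by 2.19 in HMV-I and by 0.10 in Colo679, where the arrays overlap. The carbon-ion means at 3 h lie under their control means in all 6 panels, least in C32TG.

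Line by line, tested within the 18 arrays of each line, 29 of the 60 combinations of kinesin and line were lower at 3 h after carbon ions and 0 higher, where 6.37% of all probe and line combinations were lower and 6.45% higher. HMV-I had 8 of 10 lower (6.52% of all kept probes there), 92-1 6 (3.87%), MeWo 6 (11%), HMV-II 4 (4.5%), C32TG 3 (4.15%) and Colo679 2 (8.18%). KIF20A, KIF14 and KIF18A were each lower in 5 lines, and KIFC1 in none. In C32TG, where KIF20A and KIF20B did not pass, the 3 that fell were KIF2C (-0.40, or -0.17 and not passing without replicate 3), KIF18A (-0.29) and KIF14 (-0.23). After X-rays 8 of 60 were lower, against 4.13%, and 6 of those 8 lay in Colo679, where 9.13% of all kept probes were lower. There KIF4A changed by -0.74, with controls at 2.07, 1.94 and 1.75 and 3 h arrays at 1.00, 1.36 and 1.17. The other two were KIF20A in HMV-I (-0.56) and KIF20B in MeWo (-0.66). Arrays at 3 h lay wholly below the controls in 33 of the 58 combinations with all values after carbon ions (15.9% of all probes and lines) and in 18 of 60 after X-rays (14.2%). With 2 arrays a group in place of 3, the carbon count was 13 to 21 and the X-ray count 3 to 6, lowest without replicate 2 for both.

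Whether the 3 h change differed between lines was tested on the arrays of all lines together, with p-values that again cover the spread between arrays. After carbon ions it did for 5 of 10 kinesins, KIF2C (adjusted p = 0.00410), KIF20B (0.0245), KIF18A (0.0279), KIF20A (0.0381) and KIF11 (0.0484), against 22.8% of all kept probes. After X-rays it did for 3, KIF23 (0.0131), KIF4A (0.0152) and KIF20A (0.0214), against 20.5%. Both counts were 0 without replicate 1 and without replicate 2. The order of the lines was not that of CDKN1A, which encodes the CDK inhibitor p21 and is induced by p53. At 3 h after carbon ions CDKN1A changed by 2.23 in 92-1, 1.91 in C32TG, 1.2 in Colo679, 0.90 in HMV-II, 0.61 in MeWo and 0.34 in HMV-I. The 10 kinesins had median changes of -0.54, -0.12, -0.22, -0.23, -0.27 and -0.48 in the same lines. So after carbon ions 92-1 was far from its controls in both, C32TG mainly in CDKN1A and HMV-I mainly in the kinesins. After X-rays CDKN1A changed by 2.31, 1.78, 1.55, 0.62, 0.37 and 0.45 in the same lines. The kinesin medians there were -0.31, -0.03, -0.29, -0.27, -0.05 and 0.03, so that of HMV-I lay near 0 in this beam. These are values with no test of the relation.

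Kinesins belong to larger lists, which were counted in the same fits. Of all kept probes, 6.98% fell and 6.43% rose at 3 h after carbon ions, and 4.19% fell and 2.96% rose after X-rays. Of 13662 named genes, each counted by 1 probe, 622 fell and 994 rose after carbon ions, and 245 fell and 348 rose after X-rays. Of 5 other measured mitotic kinesins, 2 fell after carbon ions at 3 h, CENPE (-0.38 ± 0.26, adjusted p = 0.0147), which carries chromosomes to the spindle equator, and KIF18B (-0.37 ± 0.14, adjusted p = 0.00366), which shortens astral microtubules. Both also fell after X-rays, with changes of -0.22 and -0.27. Of 20 spindle partners and regulators, 7 fell after carbon ions and 1 after X-rays, with the largest carbon changes in ASPM (-0.59 ± 0.31), a spindle pole protein, TPX2 (-0.51 ± 0.40), which activates Aurora A and binds KIF11 and KIF15, and CDCA8 (-0.33 ± 0.15), the passenger subunit borealin. Among 17 genes of G2 phase and mitosis 11 fell after carbon ions and 1 after X-rays, led by CENPA (-0.67 ± 0.19), the centromeric histone, and BUB1B (-0.64 ± 0.42) and BUB1 (-0.58 ± 0.44), kinases of the spindle checkpoint. None rose in these lists after either beam. Of 18 genes of G1/S and replication 0 fell and 1 rose after each beam, and of 13 p53 targets 0 fell and 10 rose.

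Kinesins with other work, mostly the transport of cargo, were counted as well. Of 24 measured transport and other kinesins, 1 fell and 2 rose after carbon ions, and 1 fell and 1 rose after X-rays. Such counts lay near the shares of all kept probes, so they set this list apart in neither direction. KIF3B, a subunit of the heterotrimeric kinesin of cilia, had the largest of these carbon changes, 0.24 ± 0.06 (adjusted p = 0.00829). KIF1A, a synaptic vesicle motor, changed by -0.24 ± 0.21 (adjusted p = 0.0484) and KIF13B by 0.21 ± 0.14 (adjusted p = 0.0327). The median of these 24 was 0.02 for carbon ions and -0.01 for X-rays.

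**Figure D3:**
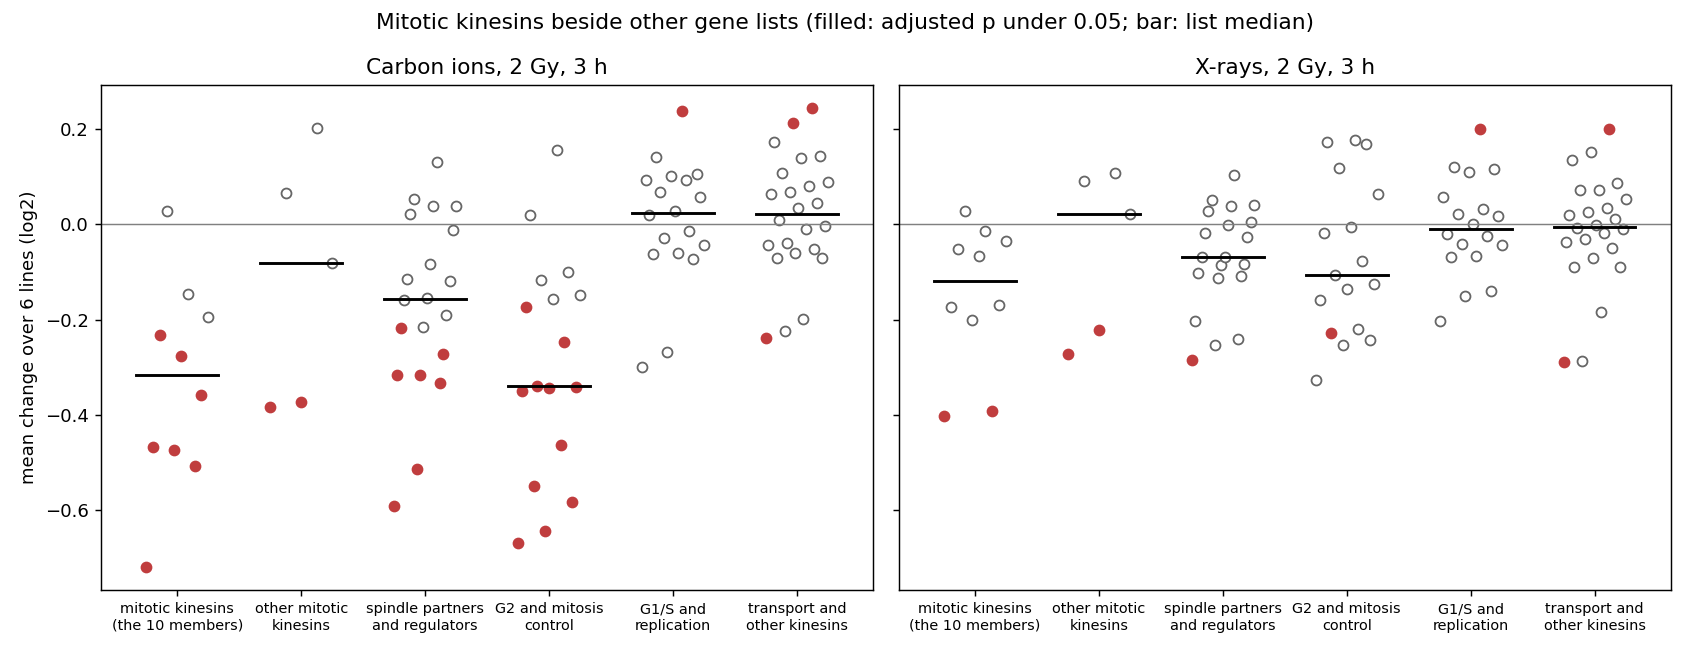
Mean change over 6 lines at 3 h, on the log2 scale, for the 10 kinesins and 5 other gene lists after carbon ions (left) and X-rays (right); each point is a gene, filled where the adjusted p is under 0.05, and black bars are list medians. The medians after carbon ions are -0.32 for the 10 kinesins, -0.34 for genes of G2 phase and mitosis, and 0.02 for transport kinesins and for G1/S genes.

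Likeness was described over the 12 changes at 3 h (6 lines by 2 beams, with 3 control arrays each that the beams do not share). KIF18A followed the mean of the other members most closely (Pearson r = 0.87), then KIF11 (0.83), KIF23 (0.75), KIF4A (0.73) and KIF20A (0.72). KIF20B (0.51), KIF14 (0.46), KIF15 (0.44) and KIF2C (0.31) followed it less, and KIFC1 did not (-0.03). Outside the panel, the 5 genes with the highest r with the members' mean were TPX2 (0.96), GPR39 (0.95), E2F3 (0.90), CRYBB1 (0.87) and CAPRIN1 (0.86), picked as the highest of all named genes. Of these TPX2 is a spindle gene, and GPR39, E2F3, CRYBB1 and CAPRIN1 had mean changes between -0.15 and 0.13 after both beams.

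Unirradiated levels were the other readout. The 2 control sets of a line, one for each beam, differed for 36 of the 60 combinations within lines, 28 higher in the carbon-ion set and 8 lower, against 17.2% of all probe and line combinations in each direction. In HMV-I 8 of 10 kinesins were higher in the carbon-ion set (22.8% of all kept probes) and 0 lower (23.2%). In 92-1 also 8 were higher (7.44%) and 1 was lower (7.04%). In C32TG 5 were higher (19.5%) and 1 was lower (22.7%). In HMV-II 1 was higher (9.55%) and 1 lower (11.3%), and in Colo679 0 were higher (6.61%) and 2 lower (6.9%). In MeWo 6 were higher and 3 lower, where 37.4% of all kept probes were higher and 31.8% lower. Across lines no member passed in limma (0% of probes). At an unadjusted p under 0.05, KIF20A, KIF14, KIF11 and KIF23 were higher in the carbon-ion controls, 4 of 10 against 9.72% of all probes.

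KIF20A differed most, by 2.19 in HMV-I, 1.49 in 92-1, 1.44 in C32TG, 1.00 in MeWo, 0.62 in HMV-II and 0.10 in Colo679, a mean of 1.14 ± 0.73 (adjusted p = 0.387), higher in 6 of 6 lines. In HMV-I the X-ray controls read 1.30, 1.44 and 1.47 and the carbon-ion controls 3.56, 3.48 and 3.75. KIF14 was also higher in 6 of 6 lines, as were 2.34% of all probes, by 0.40 ± 0.39, from 0.06 in Colo679 and C32TG to 0.95 in MeWo. KIF11 averaged 0.54 ± 0.70, with 92-1 at 1.41 and Colo679 at -0.34, and KIF23 0.50 ± 0.66, with 92-1 at 1.21 and Colo679 at -0.65. KIF20B went the other way in MeWo, by -2.79: its carbon-ion controls read 0.31, 0.16 and -0.32 and its X-ray controls 3.02, 2.96 and 2.53. KIF4A in MeWo differed by -1.12. KIF2C and KIF15 varied least, with mean differences of 0.09 ± 0.19 and -0.05 ± 0.16. For CDKN1A the same differences were -1.21 in HMV-I, -0.30 in 92-1, -0.22 in HMV-II, -0.01 in C32TG, 0.36 in MeWo and 0.41 in Colo679. The relation of these values to the kinesin levels was not tested.

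At 3 h after irradiation, KIF20A was still 0.83 ± 0.67 higher on the carbon-ion arrays than on the X-ray arrays, and higher in 5 of 6 lines, although its change from its own controls was the more negative one. The same order held for KIF11 (0.43 ± 0.54) and KIF23 (0.37 ± 0.56). Levels of 6 of the 10 were on average higher on carbon-ion arrays at 3 h, 7 were higher in carbon-ion controls, and 9 had the more negative change after carbon ions.

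**Figure D4:**
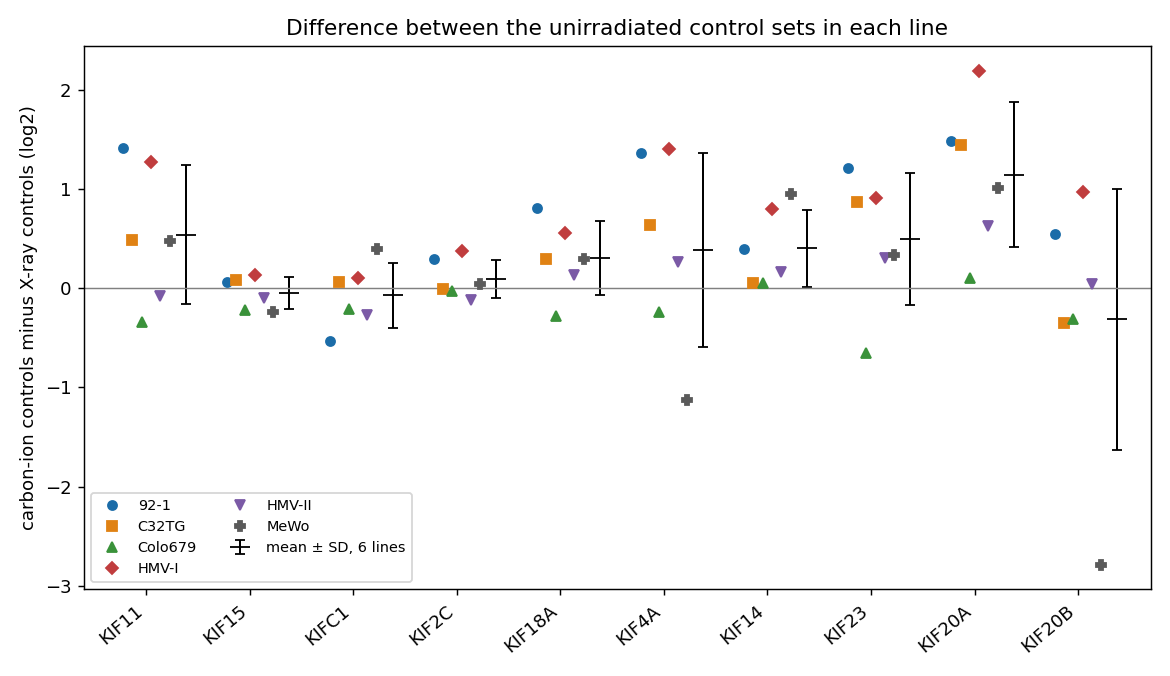
Level in the carbon-ion controls minus level in the X-ray controls for the 10 kinesins, on the log2 scale. Each symbol is 1 of 6 lines and black bars are mean ± SD; KIF20A is above 0 in all 6 lines, and KIF20B in MeWo is at -2.79.

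The order of the lines by unirradiated level was taken in each control set, since the sets differed. For 4 members the same line was at an end of the order in both. KIF18A was highest in HMV-I (4.72 in the carbon-ion controls and 4.16 in the X-ray controls), with MeWo next in both (3.82 and 3.52). KIF23 was highest in HMV-II (4.04 and 3.74), and KIF14 was lowest there (3.02 and 2.86). KIF2C was highest in HMV-I (6.14 and 5.77) and lowest in 92-1 (5.29 and 5.01). Its arrays overlapped between HMV-I and HMV-II (5.70) in the X-ray controls. They also overlapped between 92-1 and Colo679 (5.30) in the carbon-ion controls.

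For the others the order turned between the sets. MeWo was the lowest line for KIF20B and KIF4A in the carbon-ion controls (0.05 and 0.83) and the highest for both in the X-ray controls (2.84 and 1.95). For KIF4A in the X-ray controls Colo679 lay close behind at 1.92, with overlapping arrays. KIF20A was lowest in Colo679 (2.59) and highest in C32TG (4.09) in the carbon-ion controls, and lowest in HMV-I (1.40) and highest in HMV-II (2.82) in the X-ray controls. In the latter set the arrays of HMV-I overlapped those of 92-1, and the arrays of HMV-II those of C32TG. KIF11 was highest in HMV-I (4.39) in the carbon-ion controls and in HMV-II (3.75) in the X-ray controls. There the arrays overlapped those of the next line, 92-1 (4.26) and MeWo (3.58), respectively. KIF15 was highest in HMV-I (4.16) in the carbon-ion controls and in HMV-II (4.05) in the X-ray controls. These were the upper pair of lines in both sets, and in the X-ray controls HMV-I was at 4.03, with overlapping arrays. KIFC1 ran from -0.14 in HMV-II to 0.55 in HMV-I in the carbon-ion controls and from -0.23 in MeWo to 0.70 in 92-1 in the X-ray controls. The lines were also ordered by the mean of both sets, with the control arrays of both sets pooled in each line. Pooled arrays of neighbouring lines overlapped for all but 5 pairs. These were MeWo and HMV-I for KIF18A, HMV-I and HMV-II for KIF23, and MeWo and HMV-II for KIF15. For KIF14 they were HMV-II and 92-1 as well as Colo679 and C32TG. A difference between the sets widens the pooled range, so an overlap does not show that lines were alike within a set. For KIF18A, C32TG and MeWo overlapped when pooled, although within each set all C32TG controls lay below all MeWo controls. Levels are relative intensities of 1 probe a gene and order no gene against another.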

How the data were processed

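Total RNA (ISOGEN, then RNeasy) was labelled with biotin for CodeLink single-colour arrays, per the labels' protocols. The deposited table holds each array's spot intensity on a linear scale; the software that made it, and its scaling, is not given in the sources used here. Array medians of the deposited linear intensity ran from 1.02 to 1.32, and values were taken to log2 here. Probes were kept with at most 10% missing values, a value in every group and a mean log2 above the 40th percentile (-0.41), then quantile-normalized. Probes were named by the annotation given with the arrays.

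Line means gave 1 change per line, tested with limma 3.58.1 in R 4.3.3 (intercept over 6 lines, eBayes with the probe's mean level as trend, two-sided, Benjamini-Hochberg at 0.05 over 32060 probes). Within lines limma used that line's 18 arrays, and differences between lines a moderated F over all lines. The tests were also run on simulated data in which both beams of a line had the same baseline, so differing control sets were not covered. Alternatives were median centring, values as deposited, no filter on level, each replicate or line left out, a replicate block, and, chosen after seeing the data, quantile normalization before the filter. All 10 kinesins are named; of the spindle, G2 and kinesin lists up to 3 called genes with the largest carbon change at 3 h, CDKN1A, and the 5 genes most alike. RACGAP1 and the X-ray values of CENPE and KIF18B were added after their values were seen. The members and lists were chosen with earlier results of these data known.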

Additional observations from a re-analysis of the deposited data

Results flagged for a closer look

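Over 50 sets of 6 line values, 1 line stood apart from the others: for KIF20B the carbon-ion controls of MeWo lay -2.79 (log2) from its X-ray controls, while the other 5 lines lay between -0.35 and 0.97. Chance marks about 1 in 20 such sets. The 3 h changes of KIF20B in MeWo, -0.65 after carbon ions and -0.66 after X-rays, are each taken against the controls of their own beam.

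The change at 3 h differed between lines, by the moderated F, for 5 of 10 members after carbon ions and 3 of 10 after X-rays, beside 22.8% and 20.5% of all probes. KIF20A was among both.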

How the results depend on the processing

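KIF20A, KIF20B, KIF18A and KIF14 at 3 h after carbon ions, and KIF20B at 3 h after X-rays, passed in all 13 alternatives. The 7 members lower after carbon ions became 4 to 8 with 1 line or replicate left out, and the 2 after X-rays 1 or 2. With quantile normalization before the filter, chosen after seeing the data, the X-ray count was 1. The 6 lower at 3 h than at 1 h became 3 without the filter on level, 3 with the earlier normalization, and 1 to 5 with 1 line or replicate left out. Within lines, the 29 combinations lower after carbon ions became 13 to 21, the 8 after X-rays 3 to 6, the 36 between control sets 27 to 33 and the 1 at 1 h after carbon ions 0 or 1 without 1 replicate. That last count was 0 under median centring, 0 in the deposited values and 2 with the earlier normalization. Members whose change differed between lines, 5 and 3, became 3 and 4 under median centring, 3 and 1 as deposited, 7 and 5 with the earlier normalization, and 0 to 5 and 0 to 2 without 1 replicate. The causes were not tested.

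The replicate number was not taken to pair the arrays: same-number deviations correlated from -0.37 to 0.40, over 0.1 in 66 of 270 pairs. HMV-II came nearest, with 22 of 45 pairs over 0.1 and a median of 0.10, beside -0.04 for pairs of other numbers. With it as a block, the combinations within lines were 30 (carbon ions, 3 h), 11 (X-rays, 3 h; 8 without the block), 1 (carbon ions, 1 h) and 36 (control sets), and the members that differed between lines 7 and 5.

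Signs turned for values near 0. Under median centring KIF2C was 0.0604 and KIF14 0.00242 at 3 h after X-rays. In the deposited values KIFC1 was -0.0138 after carbon ions and KIF2C 0.00196 after X-rays. With the earlier normalization KIFC1 was -0.00882 after carbon ions. With 1 line or replicate left out, KIFC1 ranged from -0.0138 to 0.0604 after carbon ions and from -0.0255 to 0.0778 after X-rays, KIF23 from -0.134 to 0.00958 and KIF2C from -0.0336 to 0.0120 after X-rays, and KIF20A at 1 h after X-rays from -0.158 to 0.0534. At 1 h, 25 of 182 other member values turned sign, the largest 0.0825, and 0 passed.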
